A study of Mus musculus with 27 samples.

Results

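The 10 genes described here flank *Hgfac* on mouse chromosome 5, and they were picked by symbol as its neighbours to see whether removing part of *Hgfac* moved their RNA. They are *Tnip2*, *Sh3bp2*, *Add1*, *Mfsd10*, *Nop14*, *Grk4*, *Htt*, *Rgs12*, *Dok7* and *Lrpap1*, 10 of the 23191 named genes in the liver count table. All 10 had a single row. The RNA came from 27 male C57BL/6J mice, 8 weeks old by their labels, whose livers were taken after 4 weeks of either chow or a diet rich in fat and sucrose (HF/HS). Chow was fed to 7 control littermates and 6 HGFAC-KO mice, and HF/HS to 7 of each genotype. The HGFAC-KO mice carried a whole-body CRISPR/Cas9 deletion from the middle of exon 1 to exon 2, so every cell type lacked the same stretch of DNA, and the number of founder lines is not given in the sources used here. Between 36056177 and 57298657 counts were deposited per mouse. Replicate 1 of the HGFAC-KO mice on chow and replicate 7 of the controls on HF/HS stood apart from their groups, with a median correlation of 0.98 with the other mice of the group against 0.988 or more elsewhere. Levels are given as counts scaled to library size (CPM) after TMM scaling, and a gene was called changed at an edgeR adjusted p under 0.05.

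A deletion made in the germ line can reach beyond its own gene. Neighbouring genes may share enhancers or a chromatin domain with it, transcription that no longer stops or starts correctly can run into the next gene, and DNA inherited along with the edited allele can carry other differences. *Hgfac* encodes a serine protease that hepatocytes secrete as a zymogen and that activates hepatocyte growth factor. Its neighbours have other tasks, among them G protein signalling, endocytic receptor folding, ribosome assembly and the membrane skeleton.

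*Hgfac* (ENSMUSG00000029102) occupies chr5:35041509-35048461 of GRCm38 on the plus strand, and its main GENCODE transcript has 14 exons. *Rgs12* ends 1.9 kb before the first base of *Hgfac*, and *Dok7* begins 8.3 kb after its last base and 14.3 kb after the end of exon 2. *Lrpap1* ends 43.0 kb away and is read on the opposite strand. Upstream, *Htt* lies 129.0 kb, *Grk4* 286.2 kb, *Nop14* 381.4 kb, *Mfsd10* 404.3 kb, *Add1* 409.2 kb, *Sh3bp2* 477.9 kb and *Tnip2* 527.5 kb from *Hgfac*. Some rows share bases with other annotated genes. *Msantd1* overlaps the end of *Htt* on the same strand, antisense genes overlap *Rgs12*, *Nop14* and *Grk4*, and the microRNA gene Mir3097 lies inside *Rgs12*, while the strand setting of the counting is not given in the sources used here.

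The study's own oligonucleotides are shown because they give places in the edited exons of *Hgfac* and at the binding site tested near it. The forward genotyping primer lies in exon 1 of *Hgfac* (chr5:35041550-35041573), before the deleted part. The forward qPCR primer lies in exon 2 (chr5:35042382-35042402), inside it, and the reverse qPCR primer in exon 3 (chr5:35042621-35042642), beyond it. The reverse primer of the ChIP-qPCR pair that the study named for the ChREBP site near *Hgfac* lies in exon 15 of *Rgs12* (chr5:35030021-35030040), while its forward partner matched no transcript. Both reverse genotyping primers matched none either, so the ends of the deletion are not placed here. These places come from a match to the GENCODE transcripts of GRCm38.
Genotyping forward: ctggctactctgttcctgctacac
qPCR forward: aagtgctccagcagcagagac
qPCR reverse: ctcagaggtacaggagtgcagc
ChREBP-site reverse: caggagcacctttctgtttg

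Promoters of *Hgfac*, of the 3 genes nearest to it and of *Grk4* are shown because the comparisons below concern RNA that starts at or near these sites. RefSeq (GRCm38.p6) had a promoter for *Hgfac* and each of the 10 neighbours, 14 in all, each 300 bases long with 250 before the start and 50 after it. CG dinucleotides are in capitals. *Hgfac* had 2 of them, against 3 (*Sh3bp2*) to 29 (*Htt*) in the first promoters of its neighbours and a median of 7 over the 32851 promoters of the table. The first promoters of *Grk4* and *Nop14* overlap on opposite strands, as their genes run head to head.
Hgfac, chr5:35041259-35041558, plus strand: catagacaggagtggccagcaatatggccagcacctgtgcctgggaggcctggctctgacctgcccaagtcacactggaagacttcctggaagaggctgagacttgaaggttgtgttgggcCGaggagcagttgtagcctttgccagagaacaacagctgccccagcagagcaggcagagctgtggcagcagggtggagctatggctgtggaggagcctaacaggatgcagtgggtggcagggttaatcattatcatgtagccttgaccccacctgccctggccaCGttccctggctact
Rgs12, chr5:34949198-34949497, plus strand: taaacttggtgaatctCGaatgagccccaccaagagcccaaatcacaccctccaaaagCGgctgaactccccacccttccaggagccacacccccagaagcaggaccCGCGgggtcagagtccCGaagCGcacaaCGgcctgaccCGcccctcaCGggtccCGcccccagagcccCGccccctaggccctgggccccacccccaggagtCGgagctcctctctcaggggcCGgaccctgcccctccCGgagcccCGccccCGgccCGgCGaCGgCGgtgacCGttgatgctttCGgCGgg
Dok7, chr5:35056516-35056815, plus strand: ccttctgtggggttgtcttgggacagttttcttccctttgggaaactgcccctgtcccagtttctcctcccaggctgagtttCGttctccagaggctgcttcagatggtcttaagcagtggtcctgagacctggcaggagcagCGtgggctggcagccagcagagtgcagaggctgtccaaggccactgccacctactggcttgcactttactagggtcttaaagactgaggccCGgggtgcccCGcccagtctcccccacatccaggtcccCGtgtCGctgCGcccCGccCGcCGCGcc
Lrpap1, chr5:35105650-35105949, minus strand: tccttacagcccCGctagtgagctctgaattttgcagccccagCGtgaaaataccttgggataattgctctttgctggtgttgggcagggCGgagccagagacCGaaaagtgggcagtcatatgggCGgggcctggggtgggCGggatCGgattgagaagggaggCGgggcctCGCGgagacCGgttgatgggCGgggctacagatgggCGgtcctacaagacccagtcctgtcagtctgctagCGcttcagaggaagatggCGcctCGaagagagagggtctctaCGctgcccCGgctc
Grk4, chr5:34660129-34660428, plus strand: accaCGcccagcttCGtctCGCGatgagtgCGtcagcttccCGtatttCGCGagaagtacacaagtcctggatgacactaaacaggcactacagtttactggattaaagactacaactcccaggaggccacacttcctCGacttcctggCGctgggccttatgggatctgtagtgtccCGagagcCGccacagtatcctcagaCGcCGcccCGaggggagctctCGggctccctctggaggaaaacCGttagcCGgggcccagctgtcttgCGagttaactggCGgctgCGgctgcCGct

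The E-box letters CACGTG, the unit of the paired element that ChREBP binds, were searched on both strands and were in 0 of these 14 promoters, against 7.15% of all promoters in the table. The absence says only that these letters are not in these windows.

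The targeted gene was checked first. *Hgfac* was at 183 to 220.0 CPM in controls on chow (mean 201.2) and at 65.6 to 84.7 CPM in HGFAC-KO mice on chow (median 77.1). On HF/HS it was at 247 to 293 CPM in controls (median 274) and at 81.6 to 100.6 CPM in HGFAC-KO mice (median 89.7). No HGFAC-KO mouse reached the lowest control on its diet. The log2 fold change was -1.41 on chow (SE 0.07, edgeR adjusted p = 3.05e-08) and -1.56 on HF/HS (SE 0.06, adjusted p = 1.66e-10). The counts cover the whole gene, so reads from the exons outside the deletion are in them, and the remaining level, 0.375 of that in controls on chow, is not a level of intact RNA.

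**Figure D1:**
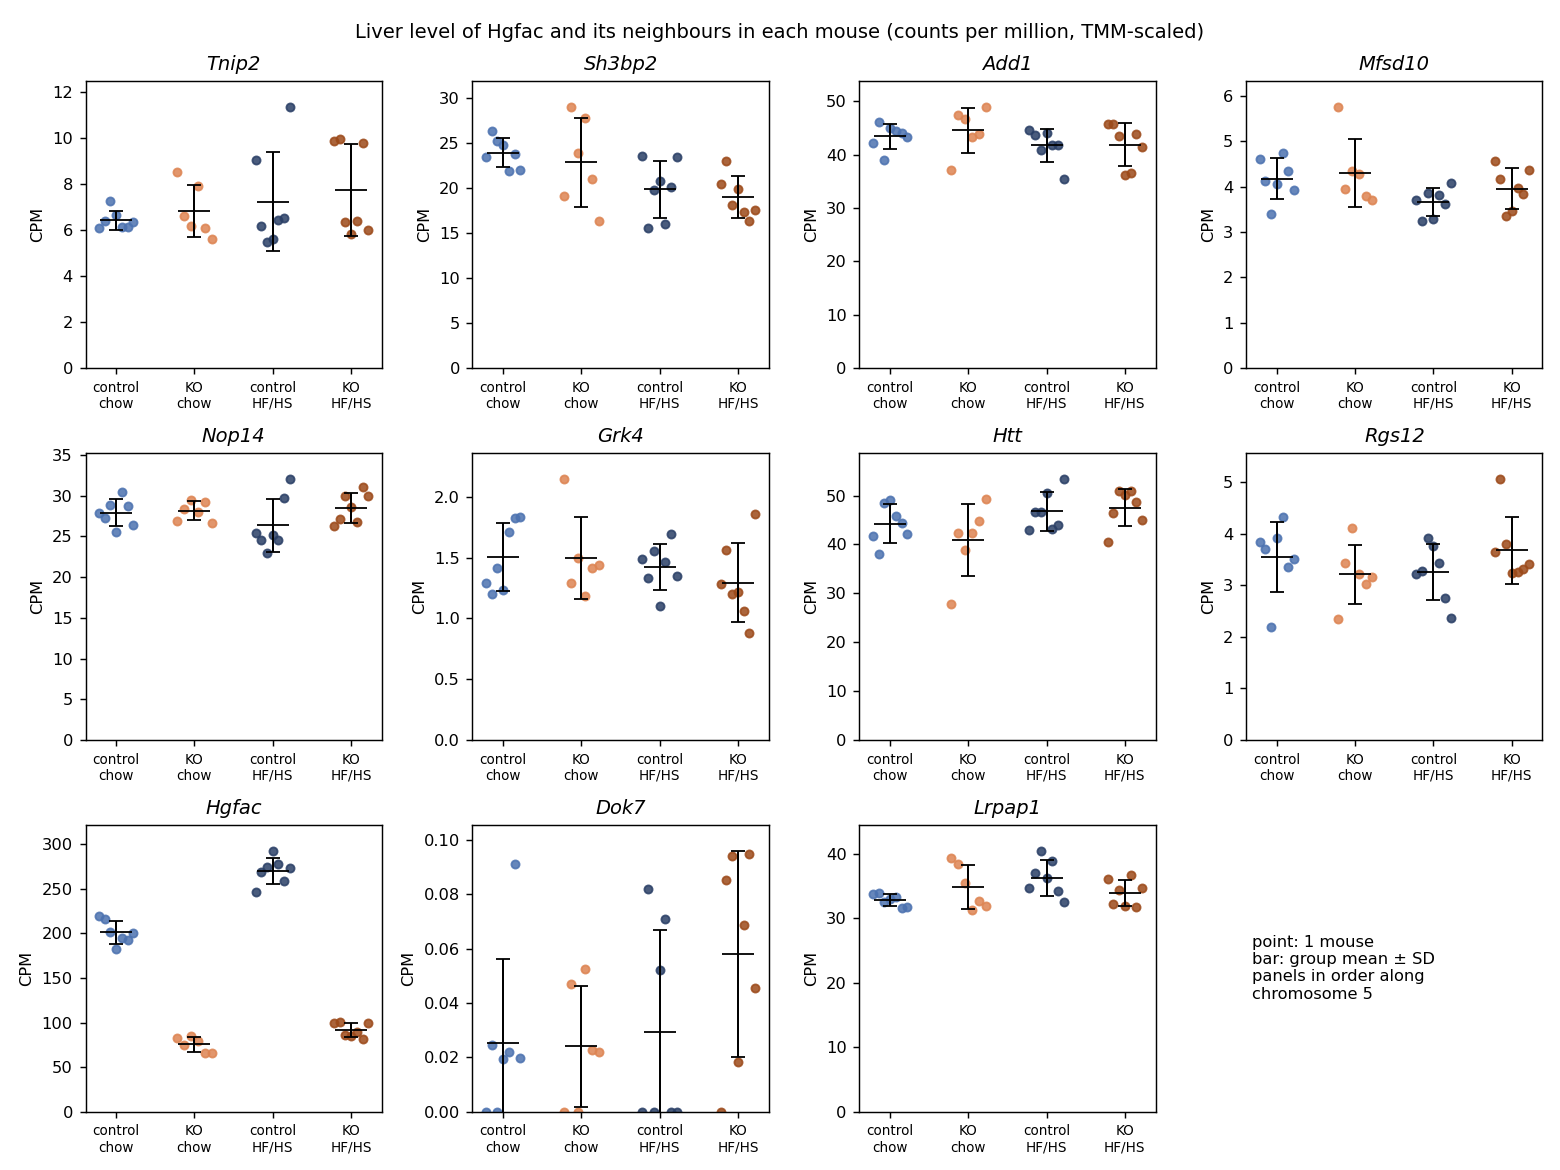
TMM-scaled CPM of *Hgfac* and its 10 neighbours in each of the 27 mice (points), with the mean and SD of each group (bars), in the order of the genes along chromosome 5 and with the vertical axis of each panel starting at 0. The 4 groups separate for genotype only in the *Hgfac* panel, while in each neighbour's panel the HGFAC-KO points overlap the control points of the same diet.

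None of the neighbours was called changed by genotype. With edgeR, 0 of the 9 neighbours tested passed on chow, where 0.00737% of 13571 genes did, and 0 of 9 passed on HF/HS, where 0.0148% of 13544 genes did. Over both diets together, a fit of all 27 mice with diet as a term called 0 of 9, against 0.158% of 13932 genes. In all 3 comparisons, 0 of 9 reached an unadjusted p under 0.05, a level that 5.98%, 9.64% and 13.1% of all genes reached. DESeq2 and limma voom also called 0 of 9 in each. Since so few genes passed anywhere, a count of 0 is near the background, and the intervals below say more than the count. *Dok7* is the gene left untested, as its counts were below the filter in all 4 groups.

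Averaged over both diets, the size of change that these mice allow was small for most neighbours. Estimates of opposite sign on chow and HF/HS, as for *Rgs12* and *Lrpap1*, partly cancel in that fit. Within a diet most 95% intervals were wider. They ran from -0.31 to 0.49 for *Tnip2* on HF/HS, and for *Grk4* from -0.35 to 0.34 on chow and -0.47 to 0.19 on HF/HS. For *Htt* on chow the interval was -0.33 to 0.11. Over both diets, the median log2 fold change of the 9 genes was 0.01, against 0.00 for all genes tested, and the median of its absolute size was 0.06, against 0.07 for all genes. Single values ran from -0.08 (*Grk4*) to 0.08 (*Tnip2*) with all mice. With single mice left out, that of *Grk4* went from -0.14 (without HGFAC-KO replicate 1 on chow) to -0.04 (without HGFAC-KO replicate 6 on HF/HS), and that of *Tnip2* from 0.05 (without HGFAC-KO replicate 2 on HF/HS) to 0.16 (without control replicate 7 on HF/HS). The 95% confidence interval was narrowest for *Lrpap1*, -0.10 to 0.07, followed by those of *Nop14* and *Add1*, and it was widest for *Grk4*, -0.31 to 0.15, and *Tnip2*, -0.14 to 0.31. The log2 fold change of *Hgfac* in the same fit was -1.49 (SE 0.05), and its interval, -1.59 to -1.40, lay far from that of each neighbour.

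**Figure D2:**
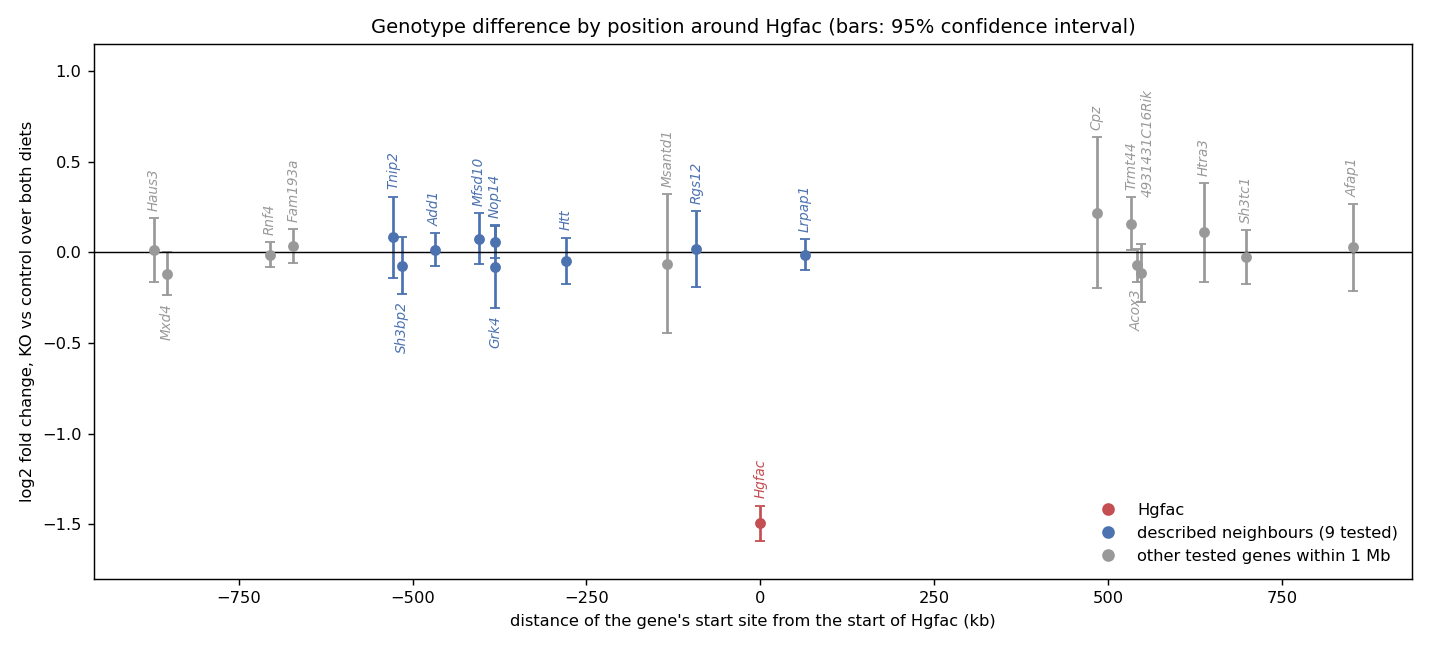
Log2 fold change of HGFAC-KO against control mice over both diets (vertical axis, points with 95% confidence intervals) against the distance of each gene's start site from the start of *Hgfac* in kb (horizontal axis), for *Hgfac*, 9 tested neighbours and other tested genes within 1 Mb (1 is not shown). *Hgfac* sits at -1.49, and the other points, the highest of them *Cpz* at 0.22, lie much nearer to 0 and none of them was called.

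*Rgs12*, the nearest gene upstream, encodes a regulator that speeds the shut-off of G protein alpha subunits. It was at 2.19 to 4.33 CPM in controls on chow (median 3.71) and at 2.34 to 4.10 CPM in HGFAC-KO mice (median 3.19). On HF/HS it was at 2.37 to 3.92 CPM in controls (median 3.28) and at 3.23 to 5.06 CPM in HGFAC-KO mice (median 3.40). The ranges overlapped on both diets, and the estimates pointed in opposite directions. The log2 fold change was -0.15 on chow (95% interval -0.46 to 0.17, edgeR adjusted p = 0.854) and 0.18 on HF/HS (-0.09 to 0.45, adjusted p = 0.685). Leaving out 1 mouse at a time gave -0.23 (without control replicate 3) to -0.07 (without HGFAC-KO replicate 1) on chow, and on HF/HS it gave 0.08 (without HGFAC-KO replicate 2) to 0.23 (without control replicate 3). The difference between diets was 0.33 (SE 0.20, interaction adjusted p = 0.984). Over both diets the value was 0.02, with an interval of -0.19 to 0.23. Counts of 96 to 237 per mouse lie behind these levels.

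*Dok7*, the nearest gene downstream, encodes an adaptor of the receptor kinase MuSK at the nerve-muscle junction. It had between 0 and 4 counts in each mouse. The counts summed to 8 over the 7 controls and 6 over the 6 HGFAC-KO mice on chow, and to 9 over the 7 controls and 18 over the 7 HGFAC-KO mice on HF/HS. Mice with 0 counts numbered 2, 2, 4 and 1 in these groups. An upper limit of 3 counts stands behind each mouse at 0, which is 0.0545 CPM in the deepest and 0.0878 CPM in the shallowest library, so a fall or a small rise of *Dok7* RNA was not detectable at this depth, while no mouse had more than 4 counts. Exact two-sided permutation tests on log2(CPM + 1) gave p = 0.984 on chow and p = 0.17 on HF/HS, unadjusted, and no fold change is given. The skeletal muscle markers *Acta1*, *Ckm*, *Myh4* and *Tnnt3* had group medians at or under 3 counts as well, and *Musk* was at 0.0176 CPM or lower on average in each group.

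*Lrpap1*, the next gene downstream, encodes the chaperone (receptor-associated protein) that keeps newly made endocytic receptors such as megalin from binding ligands before they leave the endoplasmic reticulum. In controls it was at 31.6 to 33.9 CPM on chow (median 33.1) and at 32.6 to 40.5 CPM on HF/HS (median 36.2). In HGFAC-KO mice it was at 31.3 to 39.4 CPM on chow (median 34.1) and at 31.7 to 36.7 CPM on HF/HS (median 34.4). The groups overlapped throughout, and controls on chow varied least, with a coefficient of variation of 2.74% against 9.88% in HGFAC-KO mice on chow. The log2 fold change for genotype was 0.09 on chow (95% interval -0.03 to 0.21, adjusted p = 0.823) and -0.10 on HF/HS (-0.21 to 0.02, adjusted p = 0.586). Without HGFAC-KO replicate 1 the value on chow was 0.05.

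Of the neighbours, *Lrpap1* had the smallest p for a genotype effect that differed between diets. The interaction was -0.18 on the log2 scale (SE 0.08, 95% interval -0.34 to -0.02, unadjusted p = 0.0271, edgeR adjusted p = 0.984). The other 8 neighbours had unadjusted p-values of 0.111 or more. No gene passed in that test (0% of 13932), which 3.63% of genes reached without adjustment, and DESeq2 and voom called 0 genes too. The value thus failed the correction. With single mice left out, it went from -0.21 (without HGFAC-KO replicate 4 on chow, edgeR unadjusted p = 0.0125) to -0.14 (without HGFAC-KO replicate 1 on chow, unadjusted p = 0.0662).

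*Htt*, *Nop14* and *Add1* are widely expressed genes. *Htt* encodes huntingtin, a large scaffold for vesicle transport. It was at 38.1 to 49.1 CPM in controls on chow (median 44.3) and at 27.8 to 49.3 CPM in HGFAC-KO mice on chow (median 42.4). On HF/HS it was at 42.9 to 53.4 CPM in controls (median 46.6) and at 40.5 to 51.0 CPM in HGFAC-KO mice (median 48.6). One mouse set the low end. HGFAC-KO replicate 1 on chow was at 27.8 CPM, and without it the log2 fold change for genotype on chow went from -0.11 to -0.03. Without HGFAC-KO replicate 6 it was -0.17. Replicate 1 is one of the pair that stood apart from their groups over all genes.

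*Nop14*, a part of the particle that processes the small ribosomal subunit RNA, differed by 0.01 on chow (95% interval -0.09 to 0.11) and by 0.11 on HF/HS (-0.05 to 0.27) on the log2 scale, and all 7 HGFAC-KO mice on HF/HS were above the control median while the ranges overlapped (exact permutation p = 0.127). *Add1*, the alpha subunit of adducin, which caps actin filaments of the membrane skeleton, differed by 0.04 and 0.00. *Mfsd10*, a membrane transporter of the major facilitator family, differed by 0.04 and 0.11. *Grk4*, a kinase that tags active G protein-coupled receptors for arrestin, differed by -0.01 and -0.14 at only 37 to 92 counts per mouse. *Sh3bp2*, an adaptor of immune receptor signalling, differed by -0.07 on both diets. *Tnip2*, a binding partner of A20 in the NF-kappaB pathway, differed by 0.09 on both. The lowest adjusted p of these 6 genes in either comparison was 0.653. Without replicate 1 of the HGFAC-KO mice, the values on chow were -0.06 for *Mfsd10*, -0.14 for *Grk4*, 0.01 for *Tnip2*, -0.03 for *Sh3bp2* and 0.08 for *Add1*, and without replicate 7 of the controls those on HF/HS were -0.03 for *Add1*, 0.24 for *Tnip2* and -0.02 for *Sh3bp2*, with 0 of 9 neighbours called in either case by edgeR. At an unadjusted p under 0.05 there were 0 on chow and 2 on HF/HS (*Lrpap1*, -0.12, and *Nop14*, 0.17). With all mice, 5.98% and 9.64% of all genes reached that level. Over all single mice left out on HF/HS, *Grk4* went from -0.25 (without HGFAC-KO replicate 7) to -0.07 (without HGFAC-KO replicate 6), *Tnip2* from 0.02 (without HGFAC-KO replicate 1) to 0.24, and *Sh3bp2* from -0.12 (without control replicate 2) to -0.02. On chow, *Sh3bp2* went from -0.14 (without HGFAC-KO replicate 2) to 0.01 (without HGFAC-KO replicate 6), *Mfsd10* reached 0.08 (without HGFAC-KO replicate 6), *Grk4* 0.05 (without HGFAC-KO replicate 4) and *Tnip2* 0.13 (without HGFAC-KO replicate 6).

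**Figure D3:**
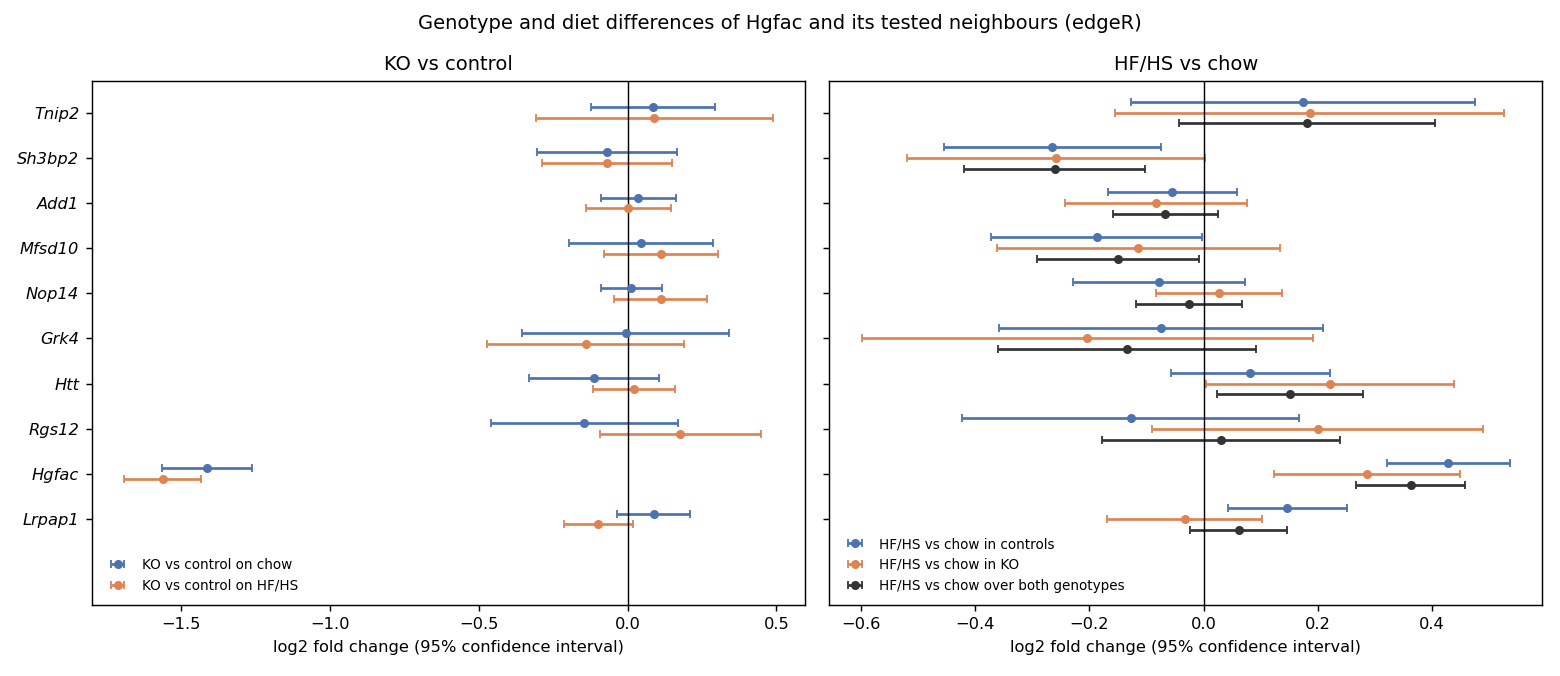
Log2 fold changes with 95% confidence intervals for *Hgfac* and its 9 tested neighbours, for HGFAC-KO against control mice (left) and for HF/HS against chow (right). On the left, *Hgfac* alone lies away from 0, and on the right the intervals that leave out 0 among the neighbours are those of *Sh3bp2* and *Mfsd10* (lower, in controls and over both genotypes), *Lrpap1* (higher, in controls) and *Htt* (higher, in HGFAC-KO mice and over both genotypes).

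The diet comparison within each genotype called none of the neighbours by edgeR. Within controls 0 of 9 passed against 10.5% of 13525 genes, and within HGFAC-KO mice 0 of 9 passed against 5.89% of 13613 genes. Without adjustment, 3 of 9 reached p under 0.05 in controls (*Lrpap1*, *Sh3bp2* and *Mfsd10*) and 1 of 9 did in HGFAC-KO mice (*Htt*), against 25.4% and 22.4% of all genes. Limma voom also called 0 in each genotype, while DESeq2 called *Lrpap1* in controls (0.15, adjusted p = 0.0249). *Hgfac* itself rose by 0.43 on the log2 scale in controls (SE 0.05, adjusted p = 5.47e-05) and by 0.29 in HGFAC-KO mice (SE 0.08, adjusted p = 0.0382), the second a call that several alternative settings lost.

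*Sh3bp2* had a lower mean on HF/HS in both genotypes. It was at 21.9 to 26.3 CPM in controls on chow (median 23.8) and at 15.5 to 23.5 CPM on HF/HS (median 20.2). In HGFAC-KO mice it was at 16.3 to 29.0 CPM on chow (median 22.5) and at 16.3 to 23.0 CPM on HF/HS (median 18.1). Every control on HF/HS was below the chow median, though the ranges overlapped. The log2 difference was -0.27 in controls (SE 0.09, adjusted p = 0.0712, exact permutation p = 0.00991 on log2(CPM + 1)) and -0.26 in HGFAC-KO mice (SE 0.12, adjusted p = 0.228). A term for diet over both genotypes, added after these values were seen, gave -0.26 (SE 0.08, 95% interval -0.42 to -0.10, adjusted p = 0.0153). In that fit 1 of 9 neighbours fell and 0 rose, where 23.5% of 13932 genes passed and 11.4% fell, and 3 of 9 had an unadjusted p under 0.05 against 36.1% of all genes. The counts are near the background.

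The other diet values stayed short of the threshold. *Lrpap1* was 0.15 higher on HF/HS in controls (SE 0.05, edgeR adjusted p = 0.0698, exact permutation p = 0.00641), with 6 of 7 mice above the chow median, and -0.03 in HGFAC-KO mice. Without replicate 7 of the controls on HF/HS, the calls for *Lrpap1* (0.17, adjusted p = 0.0302) and *Sh3bp2* (-0.31, adjusted p = 0.0333) passed in controls, and that for *Sh3bp2* also passed without replicate 1 of the same group (-0.31, adjusted p = 0.048). *Mfsd10* was at -0.19 in controls (adjusted p = 0.189), and 0 of the 7 controls on HF/HS were above the chow median. *Htt* was at 0.22 in HGFAC-KO mice (adjusted p = 0.215), and at 0.13 without replicate 1 of the HGFAC-KO mice on chow. Both genotypes shared a direction for *Htt*, *Mfsd10*, *Add1*, *Grk4*, *Sh3bp2* and *Tnip2*, and differed in sign for *Rgs12*, *Lrpap1* and *Nop14*.

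*Tnip2* differed among mice more than among groups. It was at 6.11 to 7.27 CPM in controls on chow (median 6.35), at 5.64 to 8.54 CPM in HGFAC-KO mice on chow (median 6.41), at 5.50 to 11.4 CPM in controls on HF/HS (median 6.44) and at 5.85 to 9.95 CPM in HGFAC-KO mice on HF/HS (median 6.41). The 4 medians lay close together, and the spread above them came from 7 mice over 7.5 CPM, 2 of them HGFAC-KO on chow, 2 controls on HF/HS and 3 HGFAC-KO on HF/HS. The coefficient of variation was 6.45% in controls on chow and 29.9% in controls on HF/HS. Its diet difference was 0.18 over both genotypes (SE 0.11, adjusted p = 0.238), and 0.11 without replicate 7 of the controls on HF/HS.

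Scaled to length, the neighbours differed widely in level. In controls on chow, the levels per kilobase of exon union (FPKM) were 59.0 ± 3.83 (SD, n = 7) for *Hgfac*, 10.2 ± 0.61 for *Nop14*, 7.97 ± 0.22 for *Lrpap1*, 5.57 ± 0.38 for *Sh3bp2*, 5.07 ± 0.27 for *Add1*, 2.40 ± 0.15 for *Tnip2*, 1.81 ± 0.16 for *Htt*, 1.44 ± 0.16 for *Mfsd10*, 0.418 ± 0.080 for *Rgs12*, 0.311 ± 0.058 for *Grk4* and 0.00591 ± 0.0072 for *Dok7*. The ranges of *Sh3bp2* and *Add1*, of *Htt* and *Mfsd10*, and of *Rgs12* and *Grk4* overlapped, and the other neighbours in this order did not. The order depends on the length used. Per kilobase of the longest transcript, *Hgfac* was at 81.3 FPKM, followed by *Lrpap1* at 11.01, *Nop14* at 10.3, *Add1* at 9.55, *Sh3bp2* at 7.89, *Htt* at 3.35, *Tnip2* at 3.19 and *Mfsd10* at 2.19 FPKM, so *Lrpap1*, *Add1* and *Htt* each moved up by 1 place. On the exon union, *Hgfac* exceeded 94.8% of expressed genes, while the genes on either side of it were at 0.709% (*Rgs12*) and 0.0100% (*Dok7*) of its level. *Nop14* and *Grk4*, whose promoters overlap, stood at 17.3% and 0.527% of it.

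**Figure D4:**
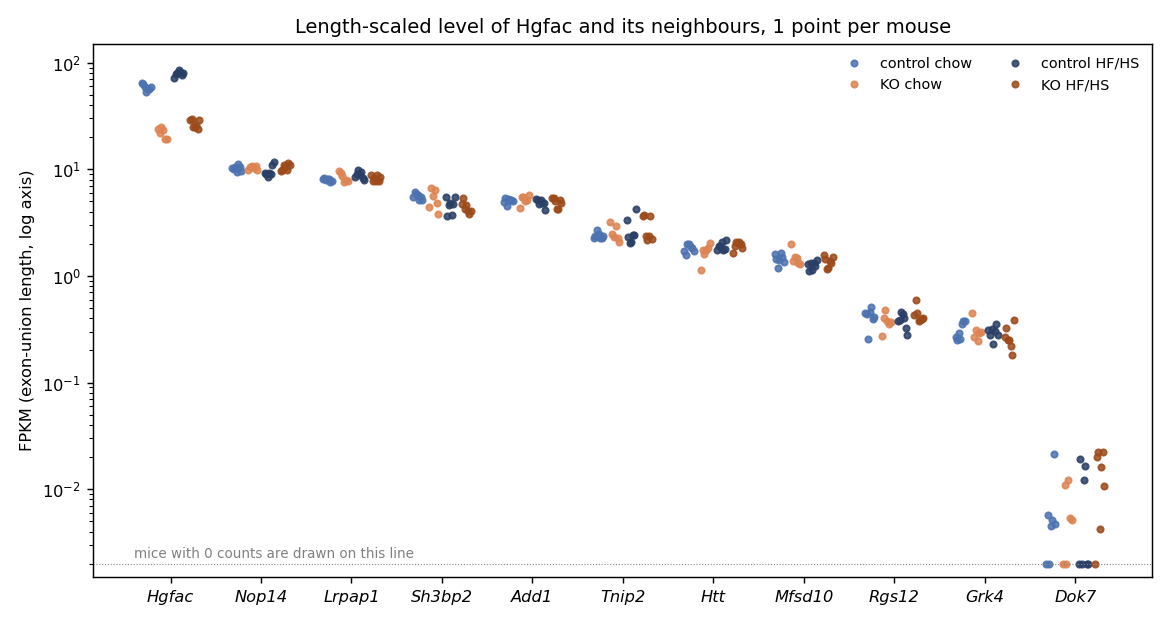
FPKM per kilobase of exon union on a logarithmic axis for *Hgfac* and its 10 neighbours in each of the 27 mice, coloured by group and ordered by the mean in controls on chow, with mice at 0 counts drawn on the dotted line. *Hgfac* is highest in all groups, *Nop14* and *Lrpap1* follow at 10.2 and 7.97 FPKM in controls on chow (10.3 and 11.01 by the longest transcript, which turns their order), and *Dok7* lies at the floor.

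The wider window gave the same count for genotype. Of 58 annotated genes with a base within 1 Mb, 34 had a row in the table, 23 of them other than *Hgfac* and the neighbours described, and 13 of these 23 were tested. By genotype 0 of 13 passed in each diet and over both. At an unadjusted p under 0.05, edgeR gave 0 on chow, 2 on HF/HS and 1 over both diets, against 5.98%, 9.64% and 13.1% of all genes. By diet, 2 of 13 rose in controls, where 10.5% of all genes passed, and 4 of 13 had an unadjusted p under 0.05, against 25.4%. *Rnf4*, a SUMO-targeted ubiquitin ligase, rose in controls from 75.5 ± 1.39 to 83.6 ± 3.29 CPM (SD, n = 7 each, log2 difference 0.15, adjusted p = 0.0158). *Acox3*, a peroxisomal oxidase of branched-chain acyl-CoA, rose from 29.0 ± 1.41 to 33.3 ± 2.51 CPM (0.20, adjusted p = 0.0254). In HGFAC-KO mice 0 of 13 passed by edgeR, with 1 (*Sh3tc1*) at an unadjusted p under 0.05, against 5.89% and 22.4% of all genes. Over both genotypes, 4 of 13 rose (*Rnf4*, *Acox3*, *Fam193a* and *Sh3tc1*), where 23.5% of all genes passed. The interaction called 0 of 13, with 0 at an unadjusted p under 0.05.

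The pathways in which the neighbours work were counted by lists, each of which holds the neighbour itself. By genotype within a diet, edgeR called 0 genes in the 9 lists, with at most 2 genes per list on chow and at most 5 on HF/HS at an unadjusted p under 0.05. Over both diets, *Grk3*, a receptor kinase related to *Grk4*, was higher in HGFAC-KO mice, at 13.1 ± 3.69 against 8.65 ± 1.22 CPM on chow and 14.4 ± 3.81 against 8.98 ± 1.99 CPM on HF/HS (log2 fold change 0.64, SE 0.12, adjusted p = 0.0283). The call was lost without 3 of the 27 mice in turn (control replicate 1 and HGFAC-KO replicates 2 and 7 on HF/HS, highest edgeR adjusted p = 0.0583), with values of 0.57 to 0.68 over all mice left out. It was the 1 of 7 tested kinases and arrestins to pass, where 0.158% of all genes passed. The other 8 lists had 0 called, and between 0 and 7 genes at an unadjusted p under 0.05, which 13.1% of all genes reached. The 37 tested genes of the small subunit processome, the particle of *Nop14*, had 34 positive and 3 negative estimates with a median of 0.06, against 0.00 for all genes, and 0 of 37 passed, with 7 at an unadjusted p under 0.05.

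By diet, the counts are to be read against the 10.5% of all genes that passed in controls and the 5.89% in HGFAC-KO mice. The list of RGS proteins also held *Axin1*. Of its 13 tested genes, *Rgs16* rose in controls, from 0.611 ± 0.286 to 3.25 ± 2.83 CPM (log2 difference 2.42, edgeR adjusted p = 0.011). It also rose in HGFAC-KO mice, from 0.767 ± 0.424 to 3.54 ± 2.74 CPM (2.20, adjusted p = 0.0421). *Rgs2* rose in HGFAC-KO mice (0.46, adjusted p = 0.0353). Of the endocytic receptor family whose members are clients of *Lrpap1*, *Lrp2* (megalin) rose in controls from 1.43 ± 0.472 to 3.27 ± 0.736 CPM (1.19, adjusted p = 0.00174) and in HGFAC-KO mice (1.31, adjusted p = 0.04). *Lrp2* was the 1 gene that rose of 12 tested in controls and of 13 tested in HGFAC-KO mice.

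In the list of *Sh3bp2* and its partners, edgeR called 0 of 12 in controls (3 at an unadjusted p under 0.05, *Sh3bp2* among them) and 4 of 12 rose in HGFAC-KO mice, the signalling genes *Plcg2* (0.89, adjusted p = 0.00566), *Syk* (0.67, adjusted p = 0.0111) and *Vav1* (0.61, adjusted p = 0.0182) and the tankyrase *Tnks2* (0.22, adjusted p = 0.0437). Over both genotypes 4 of 12 rose and 3 of 12 fell, where 23.5% of all genes passed. The difference between genotypes in the diet effect was called in 0 of 12 by edgeR (1 at an unadjusted p under 0.05). On chow, 11 of 12 had lower estimates in HGFAC-KO mice than in controls, with 0 called and 2 at an unadjusted p under 0.05. Markers of several cell types also differed by diet in HGFAC-KO mice. Estimates were higher on HF/HS for 4 of 5 sinusoidal endothelium markers (1 called by edgeR, *Stab2*, and 3 at an unadjusted p under 0.05, against 22.4% of all genes). They were higher for 5 of 6 stellate cell and fibroblast markers (0 called) and lower for 5 of 5 cholangiocyte markers (0 called). Of 6 Kupffer cell and leukocyte markers, 4 (*Clec4f*, *Cd5l*, *Ptprc* and *Adgre1*) rose in HGFAC-KO mice on HF/HS. The summed level of these 6 went from 98.7 to 146 CPM (median 115) on chow to 128 to 220.4 CPM (median 177) on HF/HS, and none of them had a group median at or under 3 counts. In controls the sum was 97.1 to 191 CPM (median 145) on chow and 134 to 262 CPM (median 165) on HF/HS, and 0 of 6 passed by edgeR, with 1 at an unadjusted p under 0.05. Between genotypes, 6 of 6 Kupffer cell and leukocyte markers had lower estimates in HGFAC-KO mice on chow (0 called by edgeR, 1 at an unadjusted p under 0.05). So did 4 of 5 endothelial and 4 of 6 stellate markers (0 called). In the interaction 0 of the 6 Kupffer cell and leukocyte markers passed, with 0 at an unadjusted p under 0.05. The part of these cells in the differences was not tested. In whole liver, fewer cells of a type and less RNA per cell cannot be told apart.

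The other lists gave single genes. *Hap1*, a transport partner of huntingtin, rose in controls (0.47, adjusted p = 0.00707) and in HGFAC-KO mice (0.58, adjusted p = 0.00707), and *F8a*, another partner, rose in controls (0.33, adjusted p = 0.00523). Of the membrane skeleton, *Ank3* fell in controls (-0.45, adjusted p = 0.0417) and in HGFAC-KO mice (-0.40, adjusted p = 0.0323), and *Epb41l3* rose in HGFAC-KO mice (0.74, adjusted p = 0.0163). *Dok2*, a leukocyte relative of *Dok7*, rose in HGFAC-KO mice (0.53, adjusted p = 0.0474). Of the processome, *Rcl1* and *Utp14a* rose in controls (0.30 and 0.27, adjusted p = 0.00935 and 0.00944) and *Krr1* in HGFAC-KO mice (0.19, adjusted p = 0.0262). In the *Tnip2* list, 0 of 17 passed in either genotype. By edgeR, 1 of 17 in controls and 2 of 17 in HGFAC-KO mice had an unadjusted p under 0.05.

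Genes whose levels over the 27 mice were most like those of the nearest neighbours are given as a description. Among 13921 expressed genes, *Rgs12* was most like *Hs3st6* (Pearson's r = 0.84, Spearman's rho = 0.76), a heparan sulphate sulphotransferase, then *Aqp8*, a water channel (r = 0.78, rho = 0.67), and *Klhl5* (r = 0.77, rho = 0.68). Genes most like *Lrpap1* included *Apoe*, an apolipoprotein of remnant particles (r = 0.82, rho = 0.74), and *Ccdc12* (r = 0.81, rho = 0.75). These values describe the mice, which share diets and genotypes. Leaving out the 2 mice farthest from the median of *Rgs12* or *Lrpap1* left the 5 r values with these genes between 0.71 and 0.79.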

How the data were processed

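Liver mRNA of 27 mice was sequenced from stranded libraries. The authors aligned reads to GRCm38 with HISAT2, counted them per gene with featureCounts 1.6.3 and deposited the raw counts, without normalization, in 1 table of 27179 rows. Rows without a gene name (3886 rows, 4.13% to 12.1% of a mouse's counts) entered neither library sizes nor tests, and repeated symbols (89) were summed. Total counts per mouse were 36056177 to 57298657 (median 47239271), so genes under about 10 counts had little precision.

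The main test was that of edgeR 4.0.16 under R 4.3.3 (TMM, filterByExpr with a minimum count of 10 and a minimum total of 15, robust quasi-likelihood fit, Benjamini-Hochberg adjustment over all genes tested, threshold 0.05), tested beforehand on simulated data. Genotypes were compared within each diet and diets within each genotype, on the mice of those groups. The interaction and the terms over both diets or genotypes used all 27 mice. Single genes were also tested by exact two-sided permutation of log2(CPM + 1). FPKM used the exon union of GENCODE genes of GRCm38. P-values measure the spread between mice, and no 2 mice of a group were alike enough to be 1 library (the closest pair had a chi-square of 17.7 for each gene). The alternatives were DESeq2 1.42.0, limma 3.58.1 voom, upper-quartile scaling, no filter, at least 10 counts in every mouse, all 27 mice in 1 fit, the replicate number as a block, and leaving out each mouse. Leaving out each mouse for *Alb*, *Grk3* and *Sox9* was chosen after seeing the data.

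The neighbours, lists and rules were chosen with earlier results of these data known. The text names *Hgfac*, the 10 neighbours, called genes within 1 Mb (at most 5 per comparison), up to 3 called genes per list and comparison, and the 3 genes most like *Rgs12*, *Dok7* and *Lrpap1*, although *Dok7* did not pass the filter and has none. Genes given for contrast outside this rule were chosen after their values were seen. Some genes that meet these rules are not reported here.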

Additional observations from a re-analysis of the deposited data

Results flagged for a closer look

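Over the 44 groups of mice formed by 11 genes and 4 groups, 5 held a mouse set apart from the rest of its group by Dixon's test, where chance alone flags about 1 in 20. *Rgs12* was at 5.06 CPM in replicate 2 of the HGFAC-KO mice on HF/HS, against 3.23 to 3.80 CPM in the others. *Dok7* was at 0.0912 CPM (4 counts) in replicate 6 of the controls on chow, against 0 to 0.0246 CPM. *Add1* was at 35.4 CPM in replicate 7 of the controls on HF/HS, against 40.8 to 44.6 CPM. Replicate 1 of the HGFAC-KO mice on chow was high for *Mfsd10*, at 5.76 CPM against 3.72 to 4.35 CPM, and for *Grk4*, at 2.15 CPM against 1.18 to 1.497 CPM. That mouse and replicate 7 of the controls on HF/HS were the 2 that deviated most from their groups over all genes, with root mean square deviations of 0.407 and 0.402 on the log2 scale. Without replicate 1 of the HGFAC-KO mice on chow, the genotype value on chow went from 0.04 to -0.06 for *Mfsd10* and from -0.01 to -0.14 for *Grk4*, and neither passed.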

How the results depend on the processing

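None of the alternatives run called a neighbour by genotype. Calls over all genes moved. DESeq2 called 13 genes on chow instead of 1, 55 on HF/HS instead of 2, 180 over both diets instead of 22, and 1401 by diet in HGFAC-KO mice instead of 802. By diet in controls it called 1939 genes, 1 neighbour (*Lrpap1*) among them. A fit of all 27 mice called 1 gene on HF/HS. With the replicate number as a block, 774 genes passed by diet in controls instead of 1424, and 14 by genotype over both diets. By diet over both genotypes the block called 2 neighbours (*Sh3bp2* and *Htt*, 0.15, edgeR adjusted p = 0.0482). Over the alternatives, 2955 to 3631 of all genes passed in that comparison. Whether the numbers pair mice cannot be told from these values. No 2 groups had every same-numbered pair correlated above 0.1, but 4 of 6 pairs between HGFAC-KO mice on chow and on HF/HS were. The other pairs of groups had 0 to 3 such pairs. In each pair of groups, 0 to 2 mice correlated best with their own number. The diet call of *Hgfac* in HGFAC-KO mice was lost with upper-quartile scaling (0.28, adjusted p = 0.0559), with the block (0.27, adjusted p = 0.0601) and without 8 of 13 single mice (adjusted p up to 0.0896). The cause was not tested.

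Leaving out single mice gave 2 to 11 genes on HF/HS (11 without HGFAC-KO replicate 5, 5 without control replicate 7), 2 to 63 over both diets (63 without control HF/HS replicate 7, 2 without HGFAC-KO HF/HS replicate 2 or 7, and a change of over 1.5 times without 15 of 27 mice) and 467 to 950 by diet in HGFAC-KO mice (467 without HGFAC-KO chow replicate 2). By diet in controls it gave 0 to 2 neighbours (1 without HF/HS replicate 1, 2 without replicate 7), where 976 to 1780 of all genes passed. By diet over both genotypes it gave 1 to 2 neighbours (2 without HGFAC-KO chow replicate 6, which added *Htt*), where 2753 to 3572 of all genes passed.

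Signs of uncalled values near 0 turned. By genotype on chow, *Grk4* went to 0.0063 with upper-quartile scaling and 0.0386 with the block. On HF/HS, *Add1* went to -0.0008 with DESeq2, without a filter and with the block, -0.0018 with voom and -0.0013 at 10 counts in every mouse. The interaction of *Sh3bp2* went to -0.0017 with DESeq2 and -0.0028 at 10 counts in every mouse, and *Lrpap1* over both diets to 0.0022 with upper-quartile scaling. Without single mice, values by genotype on chow ran from -0.0089 to 0.0347 for *Nop14*, -0.0610 to 0.0839 for *Mfsd10*, -0.14 to 0.0519 for *Grk4* and -0.14 to 0.0102 for *Sh3bp2*. On HF/HS, *Add1* ran from -0.0328 to 0.0364. Interactions ran from -0.0749 to 0.0031 for *Add1*, -0.24 to 0.0032 for *Grk4*, -0.0768 to 0.0803 for *Sh3bp2* and -0.0607 to 0.16 for *Tnip2*. By genotype over both diets they ran from -0.0342 to 0.0616 for *Rgs12*, -0.0348 to 0.0042 for *Lrpap1* and -0.0019 to 0.0348 for *Add1*. By diet they ran from -0.0628 to 0.0031 for *Lrpap1* in HGFAC-KO mice and from -0.0185 to 0.0687 for *Rgs12* over both genotypes. The order of FPKM changed with the longest transcript as length, where *Lrpap1* passed *Nop14*, *Add1* passed *Sh3bp2* and *Htt* passed *Tnip2*. Depth limits *Dok7*, *Grk4* and *Rgs12* most.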

Other observations

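The genes most like the other neighbours over the 27 mice were listed after their values had been seen, as a description over mice that share diets and genotypes. *Tnip2* was most like *F13a1* (Pearson's r = 0.89, Spearman's rho = 0.67), a coagulation factor subunit made by macrophages and platelets, *S100a8* (r = 0.88, rho = 0.62), a neutrophil and monocyte protein, and *Ccl2* (r = 0.88, rho = 0.69), a chemokine that draws monocytes. The r values for *Tnip2* were 0.83, 0.80 and 0.83 without the 2 mice farthest from its median, and 0.91, 0.94 and 0.87 for deviations from the group means. *Ccl2* ran from 0.235 to 13.2 CPM among the mice, with a median of 1.04 CPM. Levels of *F13a1* (0.0523 to 2.42 CPM, median 0.342) and *S100a8* (0.169 to 1.97 CPM, median 0.448) were lower, so few counts lie behind them in many mice.

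*Nop14* was most like *Mybbp1a* (r = 0.84, rho = 0.78), *Nop58* (r = 0.80, rho = 0.78) and *Cebpz* (r = 0.80, rho = 0.75), 3 nucleolar genes, of which *Nop58* is a core protein of box C/D particles that modify ribosomal RNA. *Add1* was most like *Cgn* (r = 0.88, rho = 0.90), which encodes the tight junction protein cingulin, *Dlg5* (r = 0.85, rho = 0.85) and *Mfsd9* (r = 0.84, rho = 0.84). *Htt* was most like *Anapc1* (r = 0.90, rho = 0.79), *Nup205* (r = 0.89, rho = 0.77) and *Med1* (r = 0.88, rho = 0.72). *Sh3bp2* was most like *Mocos* (r = 0.82, rho = 0.85), *Mrpl16* (r = 0.82, rho = 0.81) and *Inf2* (r = 0.80, rho = 0.85). The weakest were those of *Grk4*, whose first was *Pkmyt1* (r = 0.66, rho = 0.59, and r = 0.44 without the 2 mice farthest from the median of *Grk4*).

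Among cell type markers, which are outside the neighbours, 1 of 6 hepatocyte markers (*Alb*, 0.30, adjusted p = 0.0283) and 1 of 5 cholangiocyte markers (*Sox9*, 0.67, adjusted p = 0.0434) were higher in HGFAC-KO mice over both diets by edgeR, with list medians of 0.08 and 0.08 and lowest values of -0.0012 and -0.0333. Of all genes tested there, 0.158% were called, and 2 genes passed without HGFAC-KO replicate 2 or 7 on HF/HS. Over the 27 mice left out in turn, *Alb* lost its call without 3 (control replicate 1 and HGFAC-KO replicates 2 and 7 on HF/HS, highest edgeR adjusted p = 0.0583) at values of 0.28 to 0.32, and *Sox9* lost its call without 18, at values of 0.61 to 0.72. All 6 Kupffer cell and leukocyte markers had lower estimates in HGFAC-KO mice over both diets, with 0 called by edgeR and 0 at an unadjusted p under 0.05. Within diets, 6 of 6 were lower on chow, while on HF/HS 3 were higher and 3 lower. Of 5 sinusoidal endothelium markers, 4 were lower and 1 higher over both diets, with 0 called by edgeR and 2 at an unadjusted p under 0.05.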
